A study of Equus caballus with 6 samples.

Results

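Described here are 5 families of related piRNA sequences from the testis of the Mongolian horse that carry the label LINE-1 antisense. Small RNA libraries came from testis at the immature stage (3 libraries) and at the mature stage (3 libraries). They were built from 6 listed sequences, of which 3 were picked because they led in immature testis and 3 because they led in mature testis. They were selected on their read counts in these same libraries, so differences in their level between the groups are given as a description, without a test. A family holds every sequence that shares an exact stretch of at least 20 nt with its listed sequence, on the same strand. One listed sequence, uniq_371278, is the beginning of another, uniq_319261, and all of its 164 relatives were among the 167 of uniq_319261, which leaves 5 families. Together they held 679 of the 4936717 distinct sequences in the table, with 9273 of its 17914237 reads, and 404 of the 679 were read once. The labels give the breed and the stage of the testis, but no age, and they do not say that each library came from a separate animal, so p-values measure the spread between these libraries.

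PIWI proteins of germ cells bind piRNAs and use them as guides to find and silence the transcripts of transposons. LINE-1 is the main self-copying retrotransposon of mammals, and its second reading frame, ORF2, encodes the endonuclease and the reverse transcriptase that the copying needs. A piRNA antisense to ORF2 can pair with the LINE-1 transcript, and a cut made through that pairing can set the 5′ end of a sense piRNA, the exchange called the ping-pong cycle. Its usual marks are uridine at position 1 of one partner, adenine at position 10 of the other, and 5′ ends that overlap by 10 nt. No LINE-1 sequence or horse genome was used here, so the label and the place in ORF2 were taken as given and no genome positions are stated. The table holds no messenger RNA either, so the tissue was not checked against marker genes.

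The 6 listed sequences are shown first, since everything below is measured from them. They are written 5′ to 3′ as deposited, with T for U, and the capitals mark positions 1 and 10.
uniq_321222: CcattgagtAtgatgttggctgtgggt
uniq_319261: TaagatcatGtcgtctgcaaacagcgaga
uniq_371278: TaagatcatGtcgtctgcaaacagcga
uniq_3916512: TgactaatgAtgtggagcatcttttcatgc
uniq_4952155: TcagactgaAgatgccaccaacaatggaa
uniq_254845: TcttggctaTtgtaaacagtgctgcaat
The first 3 were listed for immature testis and the last 3 for mature testis. All but uniq_321222 begin with uridine, and uniq_321222, uniq_3916512 and uniq_4952155 carry adenine at position 10.

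Levels are given as counts per 1000000 reads of the table (CPM), whose libraries held 1382083 to 2347351 reads in immature and 4032042 to 4550970 in mature testis. Where no read was found, up to 3 reads remain possible from counting error alone, or 1.28 to 2.17 CPM in an immature and 0.659 to 0.744 CPM in a mature library. In immature testis uniq_321222 stood at 122, 73.3 and 76.6 CPM, and in mature testis at 0.966, 1.24 and 0.659 CPM. The sequence uniq_319261 stood at 123, 61.3 and 80.7 CPM in immature and at 1.45, 2.48 and 1.76 CPM in mature testis. Its shorter form uniq_371278 stood at 104, 51.5 and 72.5 CPM in immature testis and was read 0, 3 and 3 times in the mature libraries. These 3 were well separated between the groups, and immature replicate 1 was the highest library for each.

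Among the sequences listed for mature testis, uniq_3916512 varied most. It stood at 164, 83.1 and 31.9 CPM in the mature libraries, against 0.724, 5.54 and 4.79 CPM in the immature ones. The level of uniq_4952155 was 49.3, 26.04 and 48.8 CPM in mature and 1.45, 8.52 and 4.10 CPM in immature testis. For uniq_254845 the mature libraries lay close together, at 36.0, 37.7 and 29.2 CPM, and the immature ones at 1.45, 6.82 and 3.42 CPM. The groups did not overlap for any of the 6, which follows in part from how they were picked. The share of all sequences without overlap was not computed, so this is not read as particular to the 6. With library totals, 98.1% of all sequences tested below were called in either direction. Immature replicate 1 was the lowest library for the 3 led by mature testis. By mean CPM over the group that led, the listed sequences ranked 234, 246 and 284 among all sequences in immature testis, and 667, 2058 and 2611 in mature testis. None of the 100 most abundant sequences of any library belonged to a family. In whole testis, fewer cells of a type and less RNA per cell cannot be told apart.

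The families as a whole differed between the groups in the direction of their listed sequences, which are part of the sums. The uniq_321222 family held 205 sequences, with an immature level of 191 ± 54.6 CPM and a mature level of 5.68 ± 2.16 CPM (SD, n = 3), and the uniq_319261 family 167 sequences, at 368 ± 148 and 7.45 ± 3.41 CPM. The uniq_3916512 family was the most read, with 196 sequences at 319 ± 127 CPM in the mature and 60.9 ± 6.88 CPM in the immature libraries. The uniq_4952155 family held only 36 sequences, at 93.4 ± 23.97 and 10.7 ± 6.93 CPM, and the uniq_254845 family 75 sequences, at 57.98 ± 9.65 and 13.2 ± 3.14 CPM. Summed over the 5 families the groups overlapped, at 644 ± 199 CPM (immature) and 484 ± 128 CPM (mature). The gap between the groups was thus 33.6 and 49.4 times in the families led by immature testis, and 5.24, 8.75 and 4.38 times in those led by mature testis. Without the listed sequences, the log2 ratio of mature to immature testis was -4.41 in place of -5.07 for uniq_321222 and -5.32 in place of -5.63 for uniq_319261. It was 1.98 in place of 2.39 for uniq_3916512, 3.12 in place of 3.13 for uniq_4952155 and 1.34 in place of 2.13 for uniq_254845.

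Those ratios depend on the scale. TMM factors, which assume that most sequences do not change, were 0.360 to 0.442 in the immature and 2.38 to 2.62 in the mature libraries, and moved the median log2 fold change of all tested sequences by 2.52. On the TMM scale, the log2 ratio of mature to immature testis was -7.70 for the uniq_321222 family and -8.28 for the uniq_319261 family, the same direction as before. There the ratio was still positive for the uniq_4952155 family, at 0.58, and turned to -0.21 for uniq_3916512 and -0.45 for uniq_254845. Shares within a family, such as those of lengths and 5′ ends below, are formed within each library and do not move with the scale.

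Of the 679 family sequences, 28 had enough reads for edgeR's quasi-likelihood test, which was run on 31788 sequences of the table. With TMM factors edgeR called 16 of the 28 higher in immature testis, where the background was 21.9% of all tested sequences, and 1 higher in mature testis, against 8.41% (30.4% in either direction). With library totals it called 14 higher in immature testis (20.3% of all) and 12 higher in mature testis (77.7% of all), with 98.1% of all tested sequences called in either direction. Since this contrast chose the listed sequences, the counts and fold changes are a description and no p is given for a member. All 5 and 9 tested members of the uniq_321222 and uniq_319261 families were immature-high. They had enough reads only through the immature libraries, as uniq_405797 with 14, 15 and 15 immature and 0, 1 and 0 mature reads. Their direction was thus largely set in advance, and the counts show no excess over the background. The 28 had a median log2 fold change of -4.99 with TMM factors and -2.39 with library totals, against 0.62 and 3.15 over all tested sequences. This median mixes families chosen for opposite directions. With TMM factors the family medians were -7.54 for uniq_321222, -8.44 for uniq_319261, -0.17 for uniq_3916512, 0.93 for uniq_4952155 and 0.55 for uniq_254845. The single mature-high call was uniq_3916512, with a log2 fold change of 2.07 ± 0.68 (SE). It was not called without mature replicate 1, where the log2 fold change was 1.43, or without immature replicate 3, where it was 2.66. Of the 16 immature-high calls, 2 were in the uniq_3916512 family, uniq_282545 among them. For uniq_4952155 and uniq_254845 the log2 fold changes were 0.51 ± 0.65 and 0.51 ± 0.65 with TMM factors, and 3.06 and 3.05 with library totals.

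Over all libraries together most reads of each family shared one 5′ end, and the relatives differed mainly at the 3′ end or by single bases. In single libraries this did not always hold for uniq_3916512 and uniq_321222, as given below. The sharpest was the uniq_319261 family, in which 99.6% ± 0.0746 of immature and 99.1% ± 1.48 of mature reads began at the first base of the listed sequence (SD, n = 3). Its further leading members, with bases that differ from uniq_319261 in capitals, were these.
uniq_441763: taagatcatgtcgtctgcaaacagcgag
uniq_249822: taagatcatgtcgtctgcaaacagcg
uniq_403307: taagatcatgtcgtctgcaaacagTg
The first pair are 3′ truncations, at 41.97 ± 26.2 and 22.1 ± 11.5 CPM in immature testis, and the third carries a base change, at 16.2 ± 5.22 CPM. In mature testis these 3 stood at 0.716 ± 0.746, 0.319 ± 0.154 and 0.248 ± 0.430 CPM. The reads that began at the shared 5′ end were spread over several lengths in immature testis, with 18.1% ± 2.51 at 26 nt, 28.1% ± 1.25 at 27 nt, 16.6% ± 2.34 at 28 nt and 33.6% ± 3.30 at 29 nt. In mature testis 29 nt held 46.4% ± 6.03 and 27 nt 8.17% ± 2.07, from 15, 41 and 38 reads in the 3 libraries.

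The uniq_3916512 family had 3 main 5′ ends, and they did not move together. They are shown by their leading members, with bases outside uniq_3916512 in capitals.
uniq_252378: tgactaatgatgtggagcatcttttc
uniq_296145: tgactaatgatgtggagcatcttttcatgT
uniq_282545: TGGtgactaatgatgtggagcatcttt
uniq_331544: taatgatgtggagcatcttttcatgcA
Reads at the 5′ end of the listed sequence stood at 237 ± 148 CPM in the mature and 20.9 ± 8.90 CPM in the immature libraries. Of its members, uniq_296145 stood at 25.8 ± 14.8 and 1.39 ± 1.21 CPM. The 5′ end lying 3 nt upstream, that of uniq_282545, stood at 45.7 ± 12.2 and 32.4 ± 12.7 CPM, and the groups overlapped. It held 51.8% of the immature and 14.7% of the mature reads of the family. In the immature libraries it was read 65, 57 and 38 times, against 17, 48 and 44 times for the listed end, so its lead there rested on replicate 1 and turned in replicate 3. Its member uniq_282545 stood at 10.3 ± 3.67 CPM in the mature and 15.98 ± 9.35 CPM in the immature libraries, again with overlap. The end lying 4 nt downstream, that of uniq_331544 (chosen after its values were seen), was read 167, 22 and 266 times in the mature libraries and 5, 16 and 4 times in the immature ones. Mature replicate 3 stood apart here: the end of the listed sequence held 39.6% of its family reads, while mature replicates 1 and 2 had 82.3% and 84.7% there and 18.5% to 47.8% in the immature ones.

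At the listed 5′ end of this family the reads fell into 2 lengths. In mature testis 57.4% ± 6.31 were of 30 nt and 30.3% ± 2.85 of 26 nt, the length of uniq_252378, with 0.292% ± 0.230 at 28 nt between them. In immature testis 65.8% ± 19.1 were of 26 nt and 24.1% ± 18.97 of 30 nt, from 17, 48 and 44 reads in the 3 libraries. The shorter uniq_252378 stood at 65.2 ± 37.9 CPM in the mature and 12.03 ± 7.94 CPM in the immature libraries. Its log2 ratio of mature to immature testis was 2.44 by library totals, but -0.12 on the TMM scale, while that of uniq_3916512 itself was 4.66 and 2.15.

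The uniq_321222 family began at the listed 5′ end in 77.2% ± 5.88 of immature reads and in 46.7%, 62.5% and 44% of the reads of the mature libraries. The listed sequence sets part of this. Without it the shares were 56.7% ± 7.89 and 39.7% ± 14.4, and the groups overlapped. Here 89.5% ± 2.61 of the immature reads at that end were of 27 nt, and the next leading members differ from uniq_321222 in the last base, in capitals, or lack it.
uniq_321223: ccattgagtatgatgttggctgtgggC
uniq_405797: ccattgagtatgatgttggctgtggg
uniq_373738: ccattgagtatgatgttggctgtgggA
They stood at 9.51 ± 1.90, 8.93 ± 2.20 and 6.35 ± 0.182 CPM in immature testis and at 0.484 ± 0.440, 0.0827 ± 0.143 and 0.312 ± 0.272 CPM in mature testis. The 2 further ends of this family with over 50 reads lay 3 and 4 nt downstream, at 13.96 ± 8.18 and 11.9 ± 7.26 CPM in immature testis.

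In the uniq_4952155 family 76.1% ± 3.54 of immature and 81.5% ± 1.73 of mature reads began at the listed 5′ end, and 58.1% ± 9.67 and 67.02% ± 3.36 without the listed sequence. Its leading relatives differed in their 3′ ends, with a base beyond uniq_4952155 in capitals.
uniq_2852037: tcagactgaagatgccaccaacaatgga
uniq_3041230: tcagactgaagatgccaccaacaatggaaA
uniq_4125618: tcagactgaagatgccaccaacaatgg
They stood at 13.6 ± 5.52, 7.92 ± 0.815 and 5.91 ± 1.91 CPM in mature testis and at 1.71 ± 1.71, 0.383 ± 0.364 and 0.284 ± 0.492 CPM in immature testis. The length at this end was 29 nt in 53.8% ± 3.99 of mature and 55.6% ± 9.62 of immature reads, the latter from 4, 30 and 12 reads.

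For uniq_254845 the listed 5′ end held 91.1% ± 1.73 of mature and 61.8% ± 10.7 of immature family reads. Without the listed sequence the shares were 78.2% ± 2.32 and 45.1% ± 11.6, and the groups did not overlap. Its leading relatives again shared the 5′ end, and a base beyond uniq_254845 is in capitals.
uniq_363090: tcttggctattgtaaacagtgctgcaatA
uniq_309054: tcttggctattgtaaacagtgctgca
uniq_285916: tcttggctattgtaaacagtgctgcaa
The longer uniq_363090 stood at 5.29 ± 1.31 CPM in the mature and 0.611 ± 0.162 CPM in the immature libraries. The groups overlapped for uniq_309054, at 2.01 ± 1.70 and 1.24 ± 0.814 CPM, and uniq_285916 stood at 1.59 ± 0.580 and 0.753 ± 0.0879 CPM. At 28 nt, the length of uniq_254845, lay 76.2% ± 5.17 of mature and 48.3% ± 25.3 of immature reads with this 5′ end.

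Shares within the families were compared between the groups by an exact two-sided permutation test, whose smallest possible p is 0.1 at this number of libraries, so none could pass 0.05. With the share of opposite-strand reads and of 10 nt overlaps below, 31 such tests were made, and the lowest Benjamini-Hochberg adjusted value was 0.182. Reads of 29 to 32 nt made up 28.5% ± 3.00 of immature and 45.0% ± 3.13 of mature family reads, as the mean of the 5 families weighted equally (exact permutation p = 0.1). Without the 6 listed sequences the difference was 18.8 percentage points (exact permutation p = 0.1), against 16.5 with them. Most of the further members named above share the 5′ end of a listed sequence, and so its bases at positions 1 and 10. Leaving out the 6 therefore does not free this p-value, or those for uridine and adenine below, from the selection on read counts. Shares of single families are set in part by their listed sequence and are given as a description. The share was higher in each mature library than in each immature one in 4 families, at 27.1% ± 8.63 against 9.67% ± 2.21 for uniq_321222, 60.2% ± 11.6 against 35.8% ± 3.73 for uniq_319261, 54.9% ± 12.6 against 18.4% ± 11.9 for uniq_3916512 and 64.4% ± 2.47 against 56.99% ± 6.07 for uniq_4952155. The uniq_254845 family had 18.3% ± 2.04 in the mature and 21.6% ± 13.8 in the immature libraries. Without uniq_254845 itself, of 28 nt, this order turned, with 45.4% ± 4.85 and 30.2% ± 15.7, and the groups overlapped. In the rest of the table the share was 71.5% ± 0.957 in mature and 36.1% ± 2.90 in immature testis. Each of the 5 families lay below that mature share, a difference that was not tested.

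Uridine opened 87.4% ± 2.01 of mature and 79.7% ± 1.07 of immature family reads, again as the mean of the 5 families (exact permutation p = 0.1). Without the listed sequences the difference was 6.24 percentage points (exact permutation p = 0.1), against 7.72, with the limit just given for their relatives. The widest gap was in the uniq_321222 family, whose listed sequence begins with cytidine: 19.4% ± 5.29 of its immature and 44.4% ± 9.04 of its mature reads began with uridine. Without that sequence the shares were 36.6% ± 5.65 and 54.5% ± 12.1. In the other 4 families the share was 86.5% to 99.6% in immature and 96.2% to 100% in mature testis. With each distinct sequence counted once the difference turned to -1.56 percentage points. In the rest of the table uridine opened 89.8% ± 0.612 of mature and 75.5% ± 1.91 of immature reads.

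Adenine at position 10 ranged from none to most of the reads between families. It stood in 84.8% ± 3.50 of immature and 65.3% ± 6.04 of mature reads of the uniq_321222 family, and in 90.7% ± 3.19 and 85.9% ± 14.6 of the uniq_3916512 family. For uniq_4952155 the shares were 78.1% ± 4.35 and 82.2% ± 1.09. Not one of the 1879 reads of the uniq_319261 family had it, and in the uniq_254845 family its share was 12.2% ± 2.32 in the immature and 1.47% ± 0.905 in the mature libraries. The groups did not overlap for uniq_321222 and uniq_254845. Without the listed sequences they overlapped for uniq_321222, at 70.8% ± 6.82 and 57.1% ± 10.7, and did not for uniq_254845, at 17.5% ± 2.22 and 3.71% ± 2.48. In the rest of the table the shares were 28.03% ± 1.02 and 30.4% ± 0.621. The mean of the 5 families was 53.2% ± 1.38 in the immature and 47.0% ± 3.85 in the mature libraries (exact permutation p = 0.1), and without the listed sequences the difference was -5.72 percentage points (exact permutation p = 0.3). Over all family reads together, where the families with most reads weigh most, the order turned, with 36.0% ± 4.46 and 73.7% ± 10.1.

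Copies that begin at the same 5′ end but differ by a few bases show how far each family reaches beyond exact matches. They were counted as sequences with 1 to 4 mismatches to the first 25 nt of the listed sequence, without gaps. There were 428 such sequences for uniq_319261, 251 for uniq_3916512, 141 for uniq_254845 and 113 for uniq_321222. For uniq_4952155 there were 9, with 2 immature and 7 mature reads, beside 46 and 971 identical ones. Written with the listed base, the position from the 5′ end and the base found, C25T in uniq_319261 had 210 reads, G13A 125 and C12T 76. In uniq_321222 the leading changes were G22A with 24 and A10G with 20 reads.

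In the family of uniq_254845 the more distant copies had the opposite direction between the groups from the exact ones. In immature testis 40 reads were identical, and 4, 21, 33 and 47 had 1, 2, 3 and 4 mismatches, while in mature testis the numbers were 648, then 32, 5, 28 and 27. Reads identical over 25 nt stood at 51.2 ± 7.37 CPM in the mature and 7.33 ± 1.84 CPM in the immature libraries. Copies with 3 or 4 mismatches stood at 4.33 ± 0.332 CPM and 16.7 ± 6.36 CPM, with 17, 19 and 19 reads in the mature and 28, 22 and 30 in the immature libraries, and the groups did not overlap. On the TMM scale the log2 ratios of mature to immature testis were 0.22 for the identical reads and -4.58 for these copies, against 2.80 and -1.95 by library totals. Thus 72.4% of the immature reads at this 5′ end, and 12.4% of the mature ones, were mismatched copies.

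For uniq_3916512, identical reads stood at 227 ± 141 CPM in the mature and 19.03 ± 10.7 CPM in the immature libraries. Its copies with 3 or 4 mismatches stood at 27.99 ± 16.9 and 18.1 ± 5.84 CPM, and the groups overlapped. On the TMM scale the log2 ratios were 1.04 for the identical reads and -1.97 for the copies. For uniq_319261 and uniq_321222 the copies moved as the listed sequences did. Those of uniq_319261 with 1 to 4 mismatches stood at 205 ± 65.4 CPM in the immature and 7.09 ± 1.32 CPM in the mature libraries, and those of uniq_321222 at 37.9 ± 12.9 and 0.456 ± 0.366 CPM.

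The threshold of 20 nt leaves close relatives outside. Sequences whose longest shared stretch was exactly 20 nt numbered 112, with 135 immature and 65 mature reads, and those at 19 nt numbered 147, with 583 and 89 reads. Most of the reads at 19 nt belonged to uniq_321222, with 534 immature and 34 mature reads from 84 sequences.

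Sequences of the opposite strand, which would be sense to LINE-1 if the label holds, were rare. Only 21 sequences with 36 reads shared 20 nt with the reverse complement of a listed sequence. There were 9 in the uniq_319261 family with 23 reads, 9 in the uniq_254845 family with 10 reads, 2 in the uniq_321222 family with 2 reads, and 1 read in the uniq_3916512 family. For uniq_4952155 no such read was found beside 1259 of the listed strand, which allows a share of up to 0.251% in mature and 4.84% in immature testis. As the mean over families, the opposite strand gave 2.19% ± 2.14 of the immature and 1.38% ± 0.935 of the mature reads on both strands (exact permutation p = 0.7). The share also moves with the level of the listed strand, by which the families were chosen. It was 0.966% ± 0.514 in the immature and 6.31% ± 4.85 in the mature libraries for uniq_319261, from 18 and 5 reads, and 9.78% ± 10.8 and 0.557% ± 0.283 for uniq_254845, from 6 and 4 reads. The immature mean rested on replicate 1, where 4 reads made up 22.2% of the uniq_254845 family. Without that library the difference between the groups, mature minus immature, turned from -0.816 to 0.417 percentage points.

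The leading opposite-strand sequence was uniq_240745 of the uniq_319261 family, in which the capitals mark the bases that pair with the listed sequence.
uniq_240745: TTGCAGACGACATGATCTTAtacatagaa
uniq_631407: TTGCAGACGACATGATCTTAtacatagg
Both begin with uridine, carry adenine at position 10 and overlap the 5′ end of uniq_319261 by 20 nt. uniq_240745 was read 5, 4 and 1 times in the immature and 1, 2 and 1 times in the mature libraries, and uniq_631407 had 1 read in each of immature replicates 1 and 2. Where rows sharing 16 nt were counted, read pairs were taken only at overlaps of 1 to 25 nt. Of these pairs, 98.8% in immature and 89.4% in mature testis overlapped by 20 nt in this family. Of all its opposite-strand reads, 18 of 33 immature and 4 of 7 mature ones overlapped the listed 5′ end by 20 nt. For the others the stretch between the 2 5′ ends, counted in the same way, was 23 to 43 nt. Sequences here are at most 32 nt long, so those at 35 to 43 nt did not reach the listed 5′ end. Since this window did not reach upstream of the listed 5′ end, partners overlapping that end by 10 nt could not be counted in it. The alternative window from both strands, given below, reached 9 nt upstream. There, with 16 nt matches, 10 nt was the overlap of 0.027% of immature and 0% of mature read pairs of this family.

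A partner that overlaps by 10 nt shares only 10 nt with the listed sequence and so falls outside the 20 nt rule. Each listed sequence was therefore extended on both sides by the base most read among its relatives, by up to 12 nt, and both strands were placed on this window. With 20 nt matches to the window, 10 nt overlaps made up 3.06% ± 2.03 of immature and 1.09% ± 0.874 of mature read pairs (exact permutation p = 0.3). These pairs were pooled over the families and weighted by reads of the listed strand, by which the families were chosen. The uniq_319261 family gave 9470 of 15421 immature and 151 of 1077 mature pairs. The p-value therefore does not test a change within a family. The window reached too little upstream to hold most 10 nt partners, by 7 nt for uniq_321222, 8 nt for uniq_3916512 and 9 nt for uniq_4952155, and not at all for uniq_319261. With 16 nt matches, the shares were 20.7% ± 4.27 and 6.42% ± 6.12. The uniq_321222 family then gave 96978 of 109809 immature and 1714 of 5351 mature pairs. With windows extended by both strands, an alternative chosen after seeing the data, the difference between the groups was -22.5 percentage points in place of -1.97. The mix of families differed here too, since uniq_321222 gave 27697 of 38655 immature but 194 of 2386 mature pairs. Within that family the 10 nt share was not lower in mature testis with these windows, as given below.

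Nearly all of the 10 nt overlaps came from the uniq_321222 family, in which 175 immature and 39 mature opposite-strand reads matched the window over 16 nt or more. In immature testis the read pairs of this family overlapped by 10 nt in 22.4%, by 13 nt in 25.1% and by 5 nt in 20.5% of cases, so 10 nt was one of several overlaps and not the leading one. In mature testis the shares were 17.9%, 20.6% and 18.1%. With windows from both strands and 20 nt matches the 10 nt overlap led, at 37.1% of immature and 38.7% of mature read pairs, the latter from 6 opposite-strand reads. With these windows and 16 nt matches 13 nt led again, with 22.5% against 22.04% in immature and 20.03% against 17.8% in mature testis. In the uniq_254845 family 16 and 12 opposite-strand reads matched the window over 16 nt or more. Among overlaps of 1 to 25 nt, the most frequent was 14 nt in immature testis (23.2%) and 19 nt in mature testis (36.1%). Longer overlaps were not counted, and for 3 immature and 3 mature reads the stretch from their 5′ end to the listed one was 29 nt. For uniq_3916512, with 16 nt matches, 14 of its 16 opposite-strand reads shared one 5′ end, with 13 of the 14 in mature testis, and they did not overlap the family by 10 nt.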

How the data were processed

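Per the labels' protocols, adapters were ligated to both ends of small RNA from 3 µg of total RNA, and a gel slice of 140 to 160 bp was kept. The deposited table gives whole-number read counts per distinct sequence of 25 to 32 nt, not normalized, 1 column per library, per the file headers. The submitters' processing notes name Bowtie. For genome build and piRNA calling, details were not given in the sources used here, and the totals count called piRNAs, not sequencing depth. Libraries of a group differed by more than counting noise, with a chi-square per sequence from 6.65 to 17.9.

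The members and lists were chosen with earlier results of these data known. Python 3.11.15 scanned all sequences for shared stretches. Named by rule are the 6 listed sequences and, in each family, the 3 further members and up to 2 opposite-strand sequences with the highest mean CPM. Of the opposite-strand ones only those of the uniq_319261 family are shown, and the others, with few reads, are given as counts. A sequence outside this rule is marked as chosen after its values were seen, and some further sequences are not reported here. Shares were compared by exact permutation tests in SciPy 1.17.1. edgeR 4.0.16 in R 4.3.3 tested the whole table (TMM, filterByExpr, Benjamini-Hochberg adjusted p under 0.05). DESeq2 1.42.0, other scalings and filters, other stretches and leaving out each library were alternatives. The scripts were tested on simulated data.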

Additional observations from a re-analysis of the deposited data

How the results depend on the processing

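The number of sequences called by edgeR was 9648 of 31788, and of the same 31788 it was 31175 with library totals and 20642 with upper quartile factors. It was 86206 of 294186 tested without a filter beyond 6 reads and 15014 of 51730 without immature replicate 2. Over the libraries left out in turn it ran from 11035 to 15014, with 29005 to 52980 tested. Counts of calls thus also move with the number of sequences tested. Mature-high calls numbered 2672, but 24713 with library totals, 13822 with upper quartile factors, 28866 without the filter, 4033 with DESeq2, 693 with the replicate number as a block and 1773 to 6053 over the libraries left out. Immature-high calls numbered 6976, and 57340 without the filter. Of the 28 family sequences tested 1 was mature-high, 12 with library totals and 6 with upper quartile factors, where 24713 and 13822 of all 31788 were. Without the filter it was 12 of 111 tested, beside 28866 of 294186 over all sequences. Over the libraries left out it was 0 to 3, of 25 to 40 tested. Immature-high were 16 of the 28, and without the filter 42 of 111, beside 57340 of 294186 over all sequences. The block left 7484 calls in all and none of the family sequences mature-high, where uniq_3916512 had a log2 fold change of 1.81 and was not called; the block changed no other call of a listed sequence. The replicate numbers do not pair the libraries: deviations of libraries with the same number correlated at 0.0344, -0.0879 and 0.0119 over the tested sequences, and not every library correlated best with its own number.

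The sum of the families, mature minus immature, was -161 CPM and -1432 CPM on the TMM scale, -356 with a stretch of 16 nt, -103 with 24 nt and -65.4 without the listed sequences, and ran from -254 to -55.9 over the libraries left out. On the TMM scale the log2 ratio turned to -0.21 for the uniq_3916512 family and to -0.45 for uniq_254845. With each distinct sequence counted once the difference in uridine at position 1 turned to -1.56 percentage points. With a stretch of 16 nt it was 4.29 against 7.72, and that in adenine at position 10 was -3.70. Over all family reads together, an alternative chosen after seeing the data, the differences turned to 37.7 for adenine at position 10 and to -9.40 for the listed 5′ end, where the mean of the families gave -6.17 and 8.43, and moved to 22.8 for uridine and from 16.5 to 26.4 for 29 to 32 nt. Leaving out libraries moved the difference in 29 to 32 nt reads from 14.7 to 17.5, in uridine from 6.84 to 8.81, in adenine from -8.06 to -4.21, in the listed 5′ end from 5.85 to 12.3, in opposite-strand reads from -1.44 to 0.417 and in 10 nt overlaps from -2.97 to -0.940 percentage points. A shared stretch of 24 nt gave no value for 10 nt overlaps, since mature replicate 2 then held no pair. Low counts limit every share of a family in the group that did not lead.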

Other observations

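The last base of the listed sequences varied unequally between families, over reads of the same length that agree in all other bases. In uniq_321222 the deposited last base, T, held 78.4% of such reads, with 9.29% C, 6.25% A and 6.08% G. For uniq_3916512 the last base was C in 70.9%, T in 19.8%, A in 7.75% and G in 1.56%. The shares of the listed base were 91.9% for uniq_319261, 92.9% for uniq_371278 and 88.2% for uniq_254845. In uniq_4952155 all such reads, 28 immature and 531 mature, ended in A. This family also had the fewest mismatched copies, 9. It had no opposite-strand read by the 20 nt rule, and 2 in mature testis with windows from both strands. Whether it derives from a repeated element was not tested.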
